A study of Mus musculus with 16 samples.

Results

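H3K4me1 (monomethylated lysine 4 of histone H3) marks enhancers and the flanks of gene starts, and H3K27ac (acetylated lysine 27) sets active elements apart from those that are poised or only primed. Regions with H3K4me1 and no acetylation often lie beside or under H3K27me3, the mark laid down by Polycomb repressive complex 2, which keeps genes of other lineages silent. DNA methylation, which is high over most of the genome, is low at CpG-rich gene starts and partly lost at enhancers where factors bind. Described here are the regions that carried H3K4me1 in mouse β cells, the insulin-secreting cells of the pancreatic islet, at both ages and held no H3K27ac in young cells. They were the young H3K4me1 peaks on the 19 autosomes that overlapped an old H3K4me1 peak by 1 bp or more and no young H3K27ac region. This gave 11132 members of 76313 autosomal young peaks (14.6%), out of 77291 on all chromosomes, and 86.7% of the 12833 autosomal peaks shared by the ages.

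β cells were sorted by flow cytometry. RNA came from 3 pools of old MIP-GFP/Bl6 mice (15, 16 and 17 months) and 2 pools of young MIP-GFP/Bl6 mice (4 to 6 weeks), a line in which the insulin promoter drives a green fluorescent protein. Chromatin and bisulfite libraries came from C57Bl6 mice labelled 16 to 18 months (old) and 4 to 6 weeks (young), and the series' design text gives a higher age for the old bisulfite mice. H3K4me1, H3K27me3 and CpG methylation were each held as 1 library or list per age and H3K27ac for young cells alone, so every comparison of methylation below sets the reads of 1 old library against those of 1 young library. An RNA library pooled several mice, so p-values for RNA measure the spread between these pools.

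H3K4me1 libraries held 23133696 tags in old and 27179660 tags in young cells, the young H3K27ac library 10044078 tags, and the median autosomal CpG was covered by 21 old and 19 young reads. Gene counts summed to 23559908 to 33562822 in the old RNA libraries. They summed to 6377619 in one young library and 12892123 in the other, named below the shallower and the deeper one. The summed level of 7 β-cell markers was 324621 to 386118 CPM (counts scaled to a common library size) in old and 274157 to 329697 CPM in young libraries. Markers of other pancreatic cells were present at both ages and lower in old libraries, and none of them was at 0 in the old group. Their summed levels were 878 to 1764 CPM in old against 2064 and 33828 CPM in young libraries for 5 α-cell genes, 125 to 238 against 2572 and 7549 CPM for 3 δ- and PP-cell genes, and 60.8 to 101 CPM against 1238 and 1936 CPM for 5 acinar genes. They were 6.88 to 16.1 against 281 and 204 CPM for 3 duct genes, 19.5 to 38.1 against 298 and 580 CPM for 4 endothelial genes, 5.09 to 8.29 against 199 and 3157 CPM for 4 stromal genes, and 19.1 to 30.4 against 99.7 and 265 CPM for 4 immune genes. In each pair the shallower young library is given before the deeper. By edgeR's quasi-likelihood test, 2 of 5 α-cell, 3 of 3 δ- and PP-cell, 4 of 5 acinar and 3 of 3 duct markers fell. So did 4 of 4 endothelial, 4 of 4 stromal and 2 of 4 immune markers. Of the 7 β-cell markers, 2 rose and 0 fell.

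The results below turn most on members at gene starts, so 5 promoters with a member at or near the start are printed first. They were chosen after their values were seen. Gulp1, Hk1 and Cartpt have starts under H3K27me3 at both ages, and their RNA was lower in old cells. Gabra4 has a start under H3K27me3 in young cells only and its RNA was higher, and Ccnb2 a start without H3K27me3. Sequences are from RefSeq (GRCm38.p6), 5′ to 3′ on the gene's strand, and run from 250 bases before to 50 after the start. Capitals mark CpGs, the bases whose methylation was measured.
Gulp1: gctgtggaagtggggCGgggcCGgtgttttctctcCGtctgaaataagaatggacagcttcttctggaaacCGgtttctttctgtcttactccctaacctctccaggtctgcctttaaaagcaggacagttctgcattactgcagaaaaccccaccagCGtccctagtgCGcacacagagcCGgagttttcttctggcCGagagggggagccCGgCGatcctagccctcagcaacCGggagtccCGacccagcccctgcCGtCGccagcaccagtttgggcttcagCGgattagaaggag
Hk1: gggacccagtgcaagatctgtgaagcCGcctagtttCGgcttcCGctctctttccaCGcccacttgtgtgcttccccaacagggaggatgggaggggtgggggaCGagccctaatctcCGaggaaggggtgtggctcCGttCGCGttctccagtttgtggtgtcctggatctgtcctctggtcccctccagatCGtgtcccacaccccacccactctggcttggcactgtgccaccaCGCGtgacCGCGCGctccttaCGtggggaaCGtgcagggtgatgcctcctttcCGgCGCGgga
Cartpt: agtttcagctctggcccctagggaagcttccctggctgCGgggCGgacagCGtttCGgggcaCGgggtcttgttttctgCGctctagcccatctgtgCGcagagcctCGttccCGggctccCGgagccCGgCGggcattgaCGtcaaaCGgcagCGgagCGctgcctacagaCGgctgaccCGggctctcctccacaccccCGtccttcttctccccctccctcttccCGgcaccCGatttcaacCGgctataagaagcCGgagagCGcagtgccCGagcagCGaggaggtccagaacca
Gabra4: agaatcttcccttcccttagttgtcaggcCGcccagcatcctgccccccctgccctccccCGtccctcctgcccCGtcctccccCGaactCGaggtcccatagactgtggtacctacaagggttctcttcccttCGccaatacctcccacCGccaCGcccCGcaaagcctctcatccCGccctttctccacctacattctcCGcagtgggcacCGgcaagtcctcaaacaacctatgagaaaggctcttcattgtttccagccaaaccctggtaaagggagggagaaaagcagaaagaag
Ccnb2: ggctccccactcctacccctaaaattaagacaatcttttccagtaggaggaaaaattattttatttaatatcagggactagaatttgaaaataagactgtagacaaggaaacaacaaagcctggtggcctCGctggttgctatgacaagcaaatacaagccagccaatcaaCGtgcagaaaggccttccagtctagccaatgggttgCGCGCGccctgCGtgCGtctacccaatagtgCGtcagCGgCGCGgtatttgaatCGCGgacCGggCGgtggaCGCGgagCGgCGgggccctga
The 5 windows lie at chr1:44551421-44551720 (plus strand), chr10:62340372-62340671, chr13:99900634-99900933, chr5:71658259-71658558 and chr9:70421505-70421804 (the last 4 on the minus strand). They hold 15, 20, 26, 12 and 19 CpGs, and each of these CpGs matched a CpG of the deposited mm9 tables at the same distance from the start. All other coordinates are mm9. Across the genes with a member within 1 kb of the start, 2117 of 2978 matched a RefSeq promoter by symbol. The motif CG, which is its own reverse complement, was counted in these windows: the median was 22 CpGs (quartiles 15 and 29), and 89.7% of the promoters held 10 or more, against 8 CpGs and 46.4% over the promoters of all 25748 autosomal genes in the table.

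Many members lay at gene starts. Of the 11132, 3329 (29.9%, exact 95% interval 29.1 to 30.8%) had their centre within 1 kb of a gene start, against 19.6% of all autosomal young H3K4me1 peaks and 33.7% of the 1701 shared peaks with H3K27ac. A further 1446 (13%) lay 1 to 5 kb away, 1731 (15.5%) 5 to 20 kb, 1780 (16.0%) 20 to 50 kb and 2846 (25.6%) over 50 kb. The median distance was 11027 bp, against 22684 bp over all young peaks. A gene body held 58.8% of members and 55.4% of all young peaks.

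The calls are short, 126 bp in the young and 120 bp in the old list, and members overlapped the old peak by a median of 81 bp. At the edge of the rule, 518 members overlapped an old peak by 1 to 10 bp, and 514 peaks without H3K27ac missed one by 1 to 10 bp and were not members. At the other edge, 28 members lay 1 to 10 bp from an H3K27ac region and 23 shared peaks overlapped one by 1 to 10 bp. The median distance of a member to the nearest H3K27ac region was 33182.5 bp, and 1845 members (16.6%) had one within 1 kb. The authors' peak score had a median of 17 over members and 15 over all young peaks, and 727 members lay within 1 kb of another, so that their methylation windows share CpGs.

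The highest young H3K4me1 score belonged to a member in the body of A730008H23Rik (chr1:90173454-90173580, 0.615 kb from the start), an RNA gene known by its clone name. The next 4 lay by Klhl17 (1.68 kb upstream of the start), Pisd-ps3 (1.60 kb inside), Dpf1 (3.71 kb inside) and Rap1gap2 (42.9 kb inside). The A730008H23Rik and Pisd-ps3 members were also the ones under the strongest old H3K27me3 regions by the authors' score, followed by members at Skor1, a neural corepressor, Smo, the transducer of Hedgehog signals, and Tnfrsf25, a death receptor. The methylation level was 8.04% in old and 14.1% in young cells at the A730008H23Rik member, 74.0% and 81.3% at the Pisd-ps3 member, and 4.76% and 8.01% at the Skor1 member. It was 6.25% in old and 4.66% in young cells at the Smo member and 24.0% and 16.7% at the Tnfrsf25 member. These 5 differences were under the 10 percentage points required of a call. Pisd-ps3 is a pseudogene and may share reads with near-identical copies. Bisulfite depth was high at the first 2 members by score, against median autosomal CpGs of 21 old and 19 young reads. Counted at each CpG, 5409 old and 4463 young reads fell on 30 CpGs by A730008H23Rik. By Klhl17, 11054 and 11615 fell on 68 CpGs. Whether such depth went with their high scores was not tested.

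H3K27me3 covered a minority of these regions, more of them by the old list. It overlapped 3821 members (34.3%, exact 95% interval 33.4 to 35.2%) in the old list and 2594 (23.3%, 22.5 to 24.1%) in the young list. Both lists held 2122 members (19.1%), the old alone 1699 (15.3%), the young alone 472 (4.24%) and neither 6839 (61.4%). The old list covered 590 Mb of the autosomes and the young list 434 Mb, which leaves a region more room to overlap the old list, and whether the old list joins 2 replicas is not stated. Over all young peaks the shares were 27.8% by the old and 18.5% by the young list. At the shared peaks with H3K27ac they were 19% and 1.59%. Members at gene starts were covered most: within 1 kb the shares were 46.4% by the old list, 34.4% by the young list and 29.4% by both, and beyond 5 kb they were 27.5%, 17.8% and 13.6%. Over all young peaks the share under both lists was 25.4% within 1 kb and 11.3% beyond 5 kb. Young-only peaks without H3K27ac were at 28.2% by the old and 19.7% by the young list. Within 1 kb of a start these peaks were at 45.5% by the old list, 34.3% by the young list and 30.3% by both. The shares at gene starts were thus not peculiar to members.

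**Figure D1:**
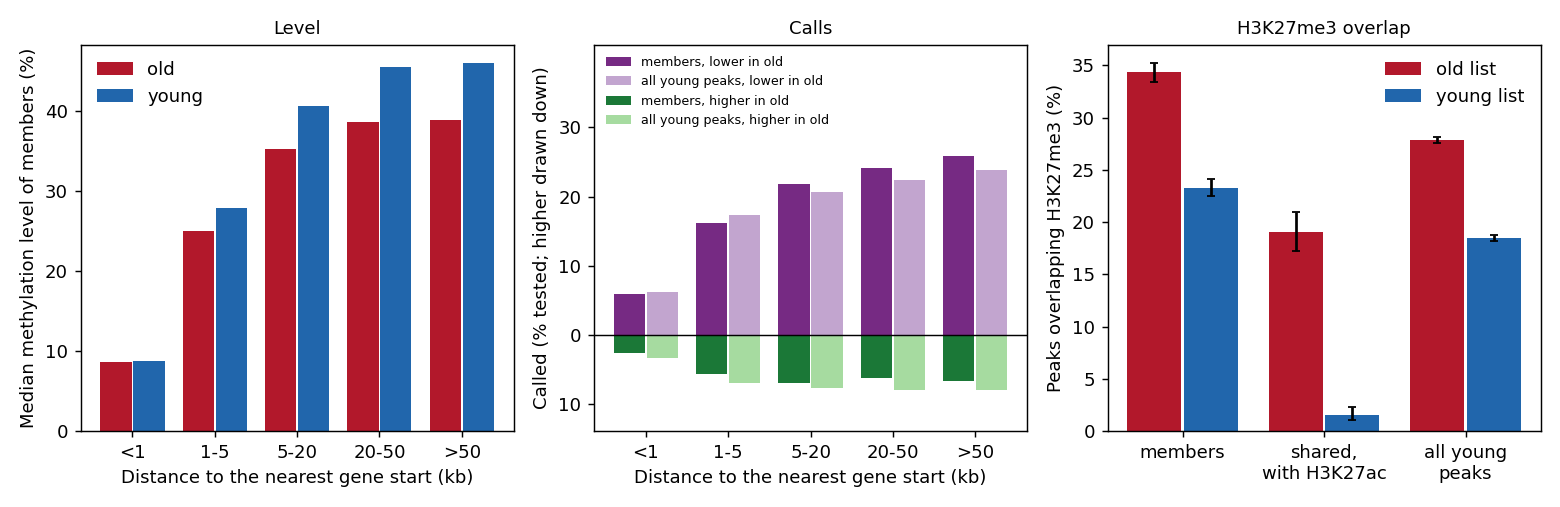
Left, median methylation level of members (% of reads methylated) in the old and the young library by distance to the nearest gene start; middle, share of tested members and of all tested autosomal young H3K4me1 peaks called lower (upward bars) or higher (downward bars) in the old library; right, share of members, of shared peaks with H3K27ac and of all autosomal young peaks that overlap H3K27me3, with exact 95% intervals. Old and young medians are close within 1 kb (8.63% and 8.74%) and apart beyond 50 kb (38.9% and 46.0%), and the members' calls follow those of all young peaks.

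Members lay in a trough of DNA methylation. Averaged per CpG, the level was 66.6% in old and 66.7% in young cells 1950 bp before the centre, and 20.6% in old and 22.9% in young cells 50 bp before it. For members more than 2 kb from a gene start it was 28.8% in old and 32.5% in young cells at the same place, and 76.8% and 76.6% at 1950 bp. The old library was below the young one in 37 of the 40 bins of 100 bp, with the widest gap, 2.34 percentage points, at that bin by the centre. Over all autosomal CpGs the mean level was 74.3% in old and 74.4% in young cells. The shared peaks with H3K27ac had a gap of 2.35 points at the same bin and young-only peaks without H3K27ac one of 2.73 points, so the gap was not peculiar to members.

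**Figure D2:**
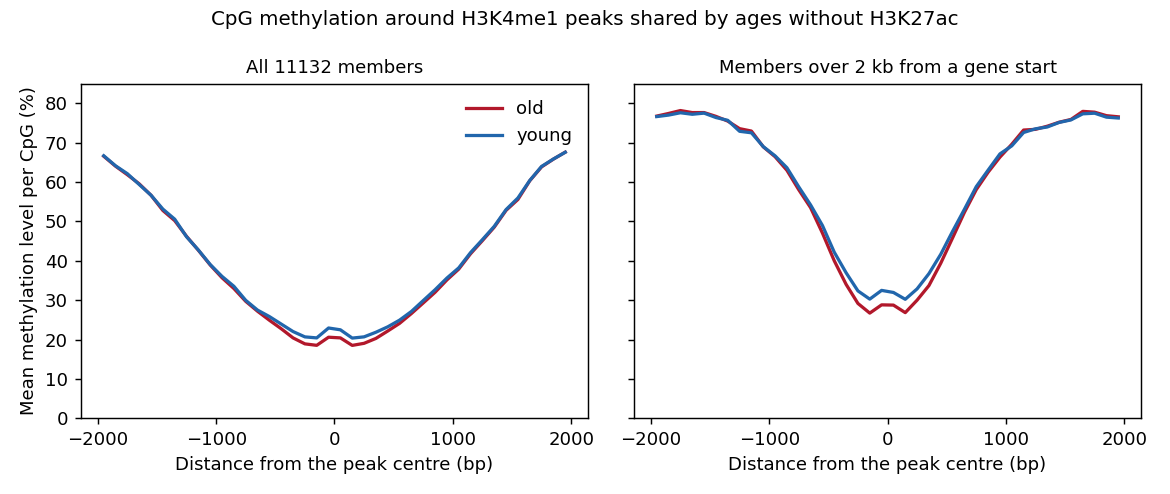
Mean methylation level per CpG (%) in 100 bp bins against distance from the peak centre (bp), for all members (left) and for members over 2 kb from a gene start (right), in the old and the young library. The lines run together at the edges and part at the centre, where the old line is lower, by 2.34 percentage points on the left and 3.68 on the right.

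Per member, levels were computed from CpGs within 500 bp of the centre that had at least 5 reads in both libraries, and 10669 members had the 3 such CpGs required. The median level was 23.3% in old and 27.4% in young cells (36.9% and 42.3% over all young peaks), and the median difference was -1.47 percentage points (-1.75 over all). A CpG call is 1 read at 1 CpG, so a read over several CpGs counts at each. Fisher's exact test, two-sided, compared methylated and unmethylated CpG calls as if they were independent. Its p was adjusted by Benjamini-Hochberg over the 70372 peaks tested. A member was called when this p was past 0.05 and the levels differed by 10 points or more. By this rule 1865 members (17.5%) were lower and 566 (5.31%) higher in the old library, against 18.6% and 6.89% of all young peaks tested. These shares are near the background and no result about the members. All 19 autosomes held more members called lower than higher, with 15.1 to 21.8% lower.

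The CpGs of one window can differ in depth between the libraries, so the calls were also compared within each CpG by the Cochran-Mantel-Haenszel test, added after the data were seen. It called 1682 members lower and 393 higher, against 16.8% and 5.17% of all young peaks. Of the 1865 lower and 566 higher calls it shared 1336 and 280. CpG calls summed over all members gave the opposite sign to the median, 13.8% in old and 13.1% in young cells. Of the members, 1249 held a CpG of over 100 reads. Without those CpGs the summed difference was 0.20 points, against 0.74 with them.

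Level and number of calls went with distance from a gene start, and a level under 10% leaves no room for a loss of the 10 points that a call requires: 2121 tested members were at 10% or less in both libraries. Within 1 kb the median level was 8.63% in old and 8.74% in young cells, over a median of 40 CpGs, and 5.92% of tested members were lower and 2.68% higher, against 6.18% and 3.37% of all young peaks at that distance. From 5 to 20 kb the medians were 35.2% and 40.7%, and 21.8% of members were lower, against 20.6% of all young peaks. Beyond 50 kb they were 38.9% and 46.0%, over a median of 10 CpGs, with 25.9% lower and 6.71% higher, against 23.9% and 8.06% of all young peaks. For all members over 5 kb away the shares were 24.2% lower and 6.68% higher, against 22.6% and 7.98% of all such peaks.

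H3K27me3 went with low methylation at both ages. Members under it in both lists had medians of 9.67% in old and 10.0% in young cells, whereas members in neither had 32.1% and 38.4%. Called lower were 8.43% and 20.9% of these members, against 12% and 20.4% of all young peaks in the same classes, and the low level under H3K27me3 limits the losses that could be called. Beyond 5 kb, members under H3K27me3 at both ages had medians of 18.3% in old and 21.1% in young cells, and members without it 43.7% and 50%. The same split over all young peaks beyond 5 kb gave 30.3% and 35% under H3K27me3, and 51.8% and 57.7% without it. CpG number moved with this split, with a median of 22 CpGs in the windows of distal members under H3K27me3 at both ages and 9 in those without it, and its part in the difference was not tested.

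The 8 largest losses among called members with at least 5 CpGs lay far from gene starts, from 8.0 to 487 kb. The largest was 38.5 kb past the start of Slc40a1, the iron exporter ferroportin (chr1:45943831-45943957, outside gene bodies). There 2 of 64 CpG calls, over 5 CpGs, were methylated in old cells (3.13%, exact 95% interval 0.381 to 10.8%). In young cells 36 of 52 were methylated (69.2%, 54.9 to 81.3%, adjusted p = 1.30e-13 by Fisher's exact test). Slc40a1 RNA stood at 120, 120 and 60.0 CPM in old and at 19 and 37.4 CPM in young libraries, a log2 fold change of 1.96 ± 0.42 (SE, edgeR adjusted p = 0.0272), and lost its call without the first or the second old library. A member 407 kb from the start of Robo2, an axon guidance receptor, had 18.0% in old and 82.9% in young cells. One 166 kb inside Smyd3, a lysine methyltransferase, had 24.1% and 82.2%.

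The other 5 were as wide. A member 30.2 kb from the start of Gmnn, the inhibitor of replication licensing geminin, had 22.8% in old and 74.9% in young cells. One 487 kb from the Lmo7 start had 25% and 76.6%. The level was 17.3% in old and 65.2% in young cells 110 kb from the Tmtc2 start, and 14.8% and 73.6% 8.0 kb from that of 4930568G15Rik. At 268 kb from the start of Cxxc4, which binds unmethylated CpGs, it was 25.5% in old and 73.3% in young cells. All 8 losses also passed within CpGs (Cochran-Mantel-Haenszel adjusted p of 1.38e-07 or smaller). None of the 8 lay under H3K27me3 in either list. Robo2 RNA was 279, 271 and 239 CPM in old and 117 and 128 CPM in young libraries (log2 fold change 1.26 ± 0.22, edgeR adjusted p = 0.0155). Cxxc4 RNA was 120, 129 and 103 CPM in old and 74.2 and 56.3 CPM in young libraries (1.0 ± 0.26, edgeR adjusted p = 0.0451). Both calls were lost without any 1 old library.

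Gains were fewer. Among called members with at least 5 CpGs, the largest lay in the body of Gpr125, an adhesion receptor (chr5:50406642-50406768, 43.5 kb from the start). There 109 of 149 CpG calls were methylated in old cells (73.2%, exact 95% interval 65.3 to 80.1%) and 18 of 56 in young cells (32.1%, 20.3 to 46.0%). The adjusted p was 1.20e-06 by Fisher's exact test. The level was 78.2% in old and 40.0% in young cells at the Gm12530 member, and 86.0% and 48.1% at the Dcaf12 member. It was 80% and 43.5% at the Gm10823 member, 240 kb from that start. At the Ildr2 member it was 65.4% in old and 29.8% in young cells, and at the Zfp719 member 66.7% and 31.2%. The Ppm1l member, 112 kb from the start, had 84.4% and 49%, and the Ankrd55 member, 168 kb away, 44.0% and 11.6%. Narrowing the window to 250 bp cut the Gm12530 gain to 3.48 points, below the call. Within CpGs the gain fell from 41.0 to 26.8 points by Gpr125 and from 35.6 to 19.1 by Ildr2. It fell from 35.4 to 26.9 by Ppm1l and from 36.5 to 23.1 by Gm10823. With each CpG weighted equally these gains were 28.0, 17.3, 18.3 and 20.6 points. The other gains were 26.0 to 37.8 points within CpGs. The Ildr2 and Ankrd55 members lay under H3K27me3 at both ages. Ildr2, a membrane protein of the immunoglobulin family, had 0.262, 0.0894 and 0 CPM in old and 58.6 and 27.8 CPM in young libraries (log2 fold change -8.31 ± 0.96, edgeR adjusted p = 0.00522).

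For the gene lists below, each member was counted at the gene with the nearest start only, within 50 kb. The share of all genes with a member at that distance is not given here. Within 100 kb, 6874 of 21530 autosomal genes with a position were nearest to a member, 6863 of them in the count table. Over all members, 19.1% lay under H3K27me3 at both ages, and 17.5% of those tested were called lower and 5.31% higher. Of 33 genes of β-cell function, 8 had a member within 50 kb, 10 members in all, and 1 was called. That member lay 14.4 kb upstream of Scg2, a secretory granule protein, with 74.5% in old and 50.6% in young cells (Fisher's exact test, adjusted p = 0.00293), and with each CpG weighted equally its gain was 9.54 points, just under the call. Scg2 RNA was 3092, 3683 and 3136 CPM in old and 1618 and 1355 CPM in young libraries (log2 fold change 1.31 ± 0.23, edgeR adjusted p = 0.0163; the call went without any 1 old library). Of the other 7 genes, all tested, Slc30a8, the zinc transporter of insulin granules, rose, with 811, 774 and 524 CPM in old and 300.3 and 329 CPM in young libraries. Rgs16, a regulator of G-protein signals, fell, with 2.85, 0.953 and 6.83 CPM in old and 45.3 and 46.2 CPM in young libraries. Over all 33 genes of the list, 7 rose and 1 fell. Ins1, Ins2 and Slc2a2 were the nearest gene of no member.

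Of 27 β-cell transcription factors 7 had 12 members within 50 kb, and 2 were called, both lower. One lay 19.4 kb upstream of Mnx1, a homeobox factor of the β-cell lineage, with 36.1% in old and 61.0% in young cells. The other lay 39.9 kb past Neurog3, the switch of endocrine commitment, with 53.6% in old and 69.2% in young cells, and its difference was -3.25 points in the 250 bp window. Nkx6-1, which keeps β-cell identity, had 2 members and neither was called, and Pdx1, Neurod1 and Mafa were the nearest gene of no member. Among the 7 genes, all tested, Esrrg, a nuclear receptor of β-cell maturation, rose (27, 27.8 and 24.2 CPM in old, 5.80 and 8.45 CPM in young libraries). Bach2, a transcriptional repressor best known from lymphocytes, fell (0.562, 0.596 and 0.297 CPM in old, 2.35 and 21.7 CPM in young libraries). Over the 25 genes of the list tested, 1 rose and 2 fell.

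Cell-cycle genes had members at 19 of 36 genes (25 members), 11 of them within 1 kb of the start and 8 under H3K27me3 at both ages. RNA of 6 of the 19 fell and none rose, against 9 and 0 of the 34 genes tested over the whole list. At the Ccnb2 start, which encodes cyclin B2, the member 453 bp upstream (chr9:70269751-70269877) had 6.42% in old and 22.3% in young cells. In the promoter printed above the level was 1.63% in old and 16.0% in young cells, and each of the 19 CpGs was lower in old cells. Close to the peak centre the sign turned: within 250 bp the level was 13.5 points higher in old cells. Ccnb2 RNA was 0.112, 0.566 and 0.0424 CPM in old and 5.33 and 14.6 CPM in young libraries (log2 fold change -5.18 ± 1.28, adjusted p = 0.0405; the call went without any 1 old library or without the deeper young one).

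E2f8, an E2F factor of proliferating cells, had 2 members at its start under H3K27me3 at both ages. No read of it was counted in the old libraries, against 9.56 and 18.3 CPM in the young ones, at least 430.5-fold lower against a floor of 3 counts over the old group. Top2a, the topoisomerase of dividing cells, had 1.61, 1.34 and 1.78 CPM in old and 21.5 and 71.8 CPM in young libraries (log2 fold change -4.72 ± 0.61, adjusted p = 0.00610). The member 514 bp from its start was at 37.1% in old and 24.1% in young cells and called higher, but not within CpGs (adjusted p = 0.974). Ccnd1, a D-type cyclin, had 36.0, 33.5 and 31.7 CPM in old and 218 and 185 CPM in young libraries. Its member 3.08 kb from the start lay under H3K27me3 in young cells only and had 3.20% in old and 7.17% in young cells. Mki67 had 1 member 19.6 kb away and Cdkn1a none. E2f1 had a called loss 16.0 kb upstream, with 54.1% in old and 75.5% in young cells, and its RNA did not pass the test (log2 fold change 0.97, adjusted p = 0.282).

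The list of growth receptors and fetal growth factors had members at 9 of 20 genes, Igf2 and 8 receptors (12 members, 7 under H3K27me3 at both ages). Of these 9, 5 fell and 1 rose, against 8 and 1 of the 18 tested over the whole list. The genes that fell were Pdgfra, Fgfr1, Fgfr3, Erbb3 and Erbb4, and Ghr, the growth hormone receptor, rose. Fgfr1 had 3.22, 2.03 and 4.88 CPM in old and 68.1 and 54.5 CPM in young libraries (log2 fold change -4.01 ± 0.50, adjusted p = 0.00554). Pdgfra had 0.0375, 0 and 0 CPM in old and 1.57 and 36.5 CPM in young libraries, with a wide gap between the young pair, and its call went without any 1 old library. Called losses lay near Igf1r (34.2 kb inside, 51.2% in old and 64.4% in young cells) and Egfr (43.9 kb upstream, 7.54% and 20.8%), with no called change of RNA. The 1 called gain, 9.14 kb from Erbb3, had 67.8% in old and 49.5% in young cells and was not called within CpGs (Cochran-Mantel-Haenszel adjusted p = 0.239).

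Developmental regulators, the classical Polycomb targets, had members at 23 of 67 genes. Of their 34 members, 25 lay under H3K27me3 at both ages. Methylation was low, with medians of 9.09% in old and 9.83% in young cells, and 2 were called lower and 1 higher. The 1 gain, 24.6 kb from Six3, was -0.48 points within CpGs. The losses lay 45.9 kb from Wnt5a, where the difference was -1.68 points within CpGs, and 8.49 kb from Msx2. None of the 3 passed the Cochran-Mantel-Haenszel test (adjusted p of 0.889 or larger). Most of these genes had few counts: 10 of the 23 passed the filter on low counts, and 2 of those fell, Foxc1 and Ebf1, against 5 of the 28 tested over the whole list. Ebf1 rests on the deeper young library, with 0.562, 0.238 and 0.424 CPM in old and 0.627 and 51.0 CPM in young libraries.

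Genes known as disallowed in β cells, whose silence protects glucose sensing, had members at 11 of 21, with 11 of 16 members under H3K27me3 at both ages. RNA of 7 of the 11 fell and none rose, against 10 and 0 of the 20 tested over the whole list. Hk1, the hexokinase replaced by glucokinase in β cells, had 0.150, 0.179 and 0.679 CPM in old and 38.7 and 13.3 CPM in young libraries (log2 fold change -6.08 ± 0.97, adjusted p = 0.0118; lost without the first old library). The member sits on its start, with 8.68% in old and 15.7% in young cells, and the promoter printed above was at 6.70% and 14.8%. Slc16a1, the lactate and pyruvate carrier MCT1, had no count in old and 4.55 and 1.40 CPM in young libraries. Ndrg2 had 0.150, 0.268 and 0 CPM in old and 20.2 and 38.2 CPM in young libraries. Cat, encoding catalase, had a called loss 18.0 kb inside, at 9.04% in old and 19.2% in young cells, which was a gain of 1.82 points within 250 bp, and its RNA did not pass the test (adjusted p = 0.0708).

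Genes of other cell types in the pancreas had members too. Members stood at 7 of 16 endothelial genes, where 5 genes fell, at 5 of 15 stromal genes, where all 4 tested fell, at 3 of 20 acinar and duct genes, where 2 fell, and at 3 of 16 genes of other islet cells, where 1 fell. Over the whole lists 13 of 16 endothelial, 13 of 14 stromal, 11 of 18 acinar and duct, and 6 of 14 other islet genes tested fell. None of the 12 immune genes was the nearest gene of a member within 50 kb. All 6 stromal members, by Col1a2, Fn1, Pdgfra, Twist1 and Vim, lay under H3K27me3 at both ages. Pdgfra also stands on the lists of growth receptors and of disallowed genes, and its fall is counted in each. Called losses lay by Pecam1 and Sox18, both endothelial, at 25.7% in old and 42.3% in young cells and at 8.29% and 18.9%, and both fell short of the 10 points within CpGs. Pecam1 RNA was 6.67, 13.5 and 2.97 CPM in old and 106 and 151 CPM in young libraries. A called gain 18.3 kb upstream of Ctrb1, a pancreatic protease, had 48.0% in old and 30.8% in young cells, with RNA of 85.9, 56.4 and 53.7 CPM in old and 999.7 and 1521 CPM in young libraries. A loss 47.1 kb from Mc4r rested on 3 CpGs, with 0 of 91 CpG calls methylated in old and 7 of 34 in young cells.

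RNA of genes near members was then compared between the ages. In bulk RNA, fewer cells of a type and less RNA per cell cannot be told apart. Of 6863 genes nearest to a member within 100 kb, 5834 passed the filter on low counts. By edgeR's quasi-likelihood test 160 were higher (2.74%) and 501 lower (8.59%) in old cells, against 3.17% and 7.93% of the 15544 genes tested. These shares are near the background. The methylation call of a member over 5 kb away went with similar shares of changed nearest genes: 3.06% of genes near a member called lower rose and 8.33% fell, 2.42% and 8.87% near a member called higher, and 3.50% and 8.46% where no such member was called.

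At gene starts the share of genes that fell followed H3K27me3 at the member. Of the 2975 genes in the count table with a member within 1 kb, 2652 were tested, 48 rose and 268 fell (10.1%). Where the member lay under H3K27me3 at both ages, 164 of 588 tested genes fell (27.9%) and 2 rose, with a median log2 fold change of -3.07. Without H3K27me3 at either age 38 of 1446 fell (2.63%) and 29 rose (2.01%), with a median of 0.13. With the old list alone 55 of 466 fell (11.8%) and 7 rose, and with the young list alone 11 of 126 fell (8.73%) and 10 rose (7.94%). Of the 825 genes under H3K27me3 at both ages, 237 did not pass the filter, and a gene silent in old cells could pass only through its young counts. Counted over all 825, 33.8, 33.5 and 32.2% reached 1 CPM in the 3 old libraries against 69.3 and 66.5% in the shallower and the deeper young library. Over all genes these shares were 54.0 to 54.9% in old and 68.7 and 62.4% in young libraries.

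The pattern was not peculiar to members, since 426 of 1459 tested genes (29.2%) fell where any young H3K4me1 peak at the start lay under H3K27me3 at both ages. Non-β markers, higher in both young libraries than in any old one, moved with it, and their part in it was not tested. Leaving out an old library changed the counts: 39, 51 and 34 of the genes under H3K27me3 at both ages fell without the first, the second and the third. Over all genes these counts were 291, 391 and 273. Without the shallower or the deeper young library, the median log2 fold change under H3K27me3 at both ages was -2.90 and -2.47. For starts with H3K27me3 at neither age the counts were 7, 7 and 5, and these medians 0.20 and 0.31. Of 71 called genes examined singly, 31 or 32 kept the call without 1 old library, 65 or 66 without 1 young library, 25 in all 5 of these fits and 71 by DESeq2.

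**Figure D3:**
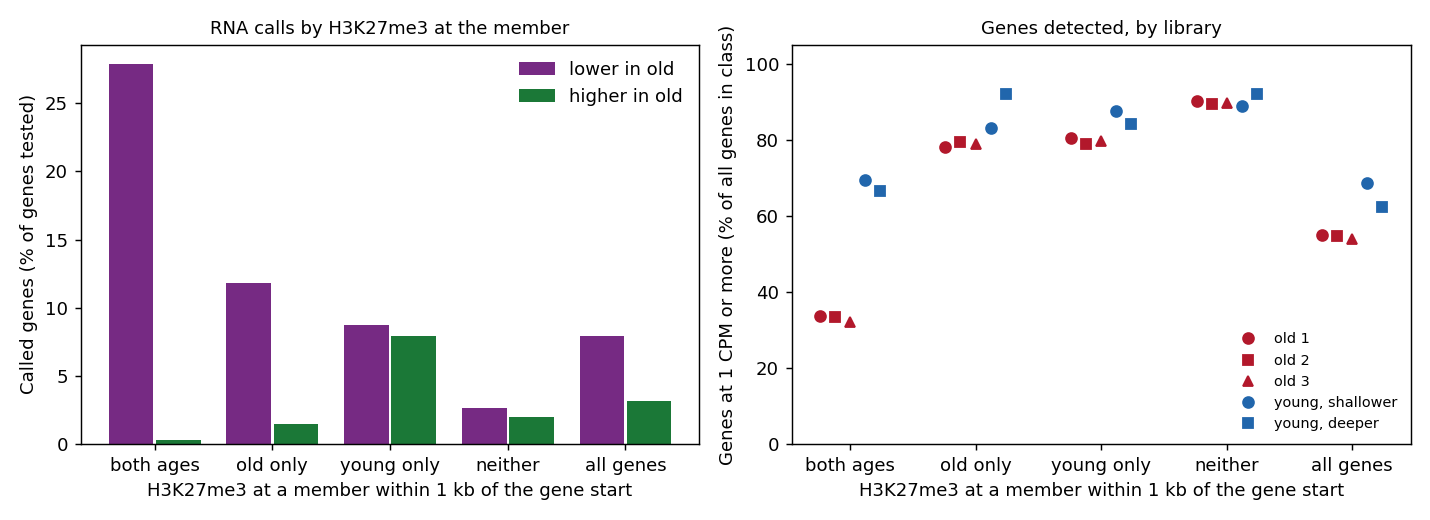
Left, share of tested genes called lower or higher in old cells (edgeR), by H3K27me3 at the member within 1 kb of the start, and over all genes; right, share of all genes of each class at 1 CPM or more in each library. Under H3K27me3 at both ages 27.9% were lower, and the 3 old libraries (32.2 to 33.8%) lie below both young ones (66.5 and 69.3%).

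Genes under H3K27me3 at both ages that fell came from several roles. Notch2 and Notch3, receptors of juxtacrine signals, had 5.89, 11.4 and 7.98 CPM and 3.15, 1.01 and 2.97 CPM in old libraries, against 83.4 and 66.8 CPM and 62.9 and 95.3 CPM in young ones. Fn1, fibronectin, had 0.112, 0.0596 and 0.127 CPM in old and 10.0 and 124 CPM in young libraries, and Col1a2, a chain of collagen I, 1.12, 0.536 and 1.44 against 65.2 and 901 CPM. Both are fibroblast products and far apart between the young libraries. Maf, a factor of α cells and macrophages, had 0.337, 0 and 0.0424 CPM in old and 24.3 and 17.0 CPM in young libraries. Gulp1, an adaptor of engulfment, had 0, 0.0298 and 0.127 CPM in old and 9.25 and 6.98 CPM in young libraries (log2 fold change -6.98 ± 1.46, adjusted p = 0.0262; lost without any 1 old library). Cartpt, an islet neuropeptide, had 0.112, 1.13 and 1.74 CPM in old and 27 and 27.1 CPM in young libraries (-4.57 ± 0.98, adjusted p = 0.0275; lost without the second or the third). The 2 genes that rose were Kcnh5, a potassium channel, with 20.6, 13.8 and 11.2 CPM in old and 1.88 and 0.310 CPM in young libraries, and Pde4dip, with 258, 283 and 214 CPM in old and 104 and 119 CPM in young libraries.

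Where the young list alone held H3K27me3, 10 of 126 genes rose. Gabra4, the α4 subunit of the GABA-A receptor, showed the largest rise of any gene meeting the naming rule. It had 23.5, 24.9 and 21.0 CPM in old and 0.157 and 0.621 CPM in young libraries (log2 fold change 5.89 ± 0.73, adjusted p = 0.00554), and the call held without any 1 library. The nearest of its 2 members (chr5:72049505-72049631) is centred 21 bp upstream of the start. Pcdhac1, a protocadherin that can share reads with its overlapping cluster, had 99.8, 114 and 92.2 CPM in old and 8.47 and 20.3 CPM in young libraries. Bcat1, a branched-chain amino acid transaminase, had 31.3, 60.4 and 48.3 CPM in old and 8.94 and 1.01 CPM in young libraries. Of the 11 that fell, Gpx3, a secreted glutathione peroxidase, had 169, 165 and 241 CPM in old and 1144 and 1578 CPM in young libraries. Its member was also called lower, with 6.60% in old and 17.2% in young cells. Without each old library in turn 2 or 3 of these genes were called higher, against 40 to 95 of all genes.

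Where the old list alone held H3K27me3, the genes that fell included Fgfr1, Myh11, the myosin of smooth muscle (2.74, 0.953 and 0.552 CPM in old and 120 and 382 CPM in young libraries, with 1 member called higher and 1 called lower), and Uhrf1, which recruits maintenance DNA methylation (0.0375, 0.0298 and 0.127 CPM in old and 2.51 and 15.4 CPM in young libraries). Atf5, a stress-response factor, rose: 364, 347 and 328 CPM in old and 54.6 and 80.1 CPM in young libraries (log2 fold change 2.52 ± 0.26, adjusted p = 0.00440). Rnf149, a ubiquitin ligase, had 39.4, 25 and 29.2 CPM in old and 0.784 and 3.26 CPM in young libraries. With H3K27me3 at neither age, Krt19, a duct keratin, had 0.0375, 0.119 and 0.0424 CPM in old and 33.2 and 16.8 CPM in young libraries. Pld1, a phospholipase, had 2.92, 1.25 and 1.78 CPM in old and 57.4 and 80.4 CPM in young libraries. Ccng1, a cyclin induced by p53, had 126, 129 and 102.2 CPM in old and 39.5 and 45.7 CPM in young libraries.

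**Figure D4:**
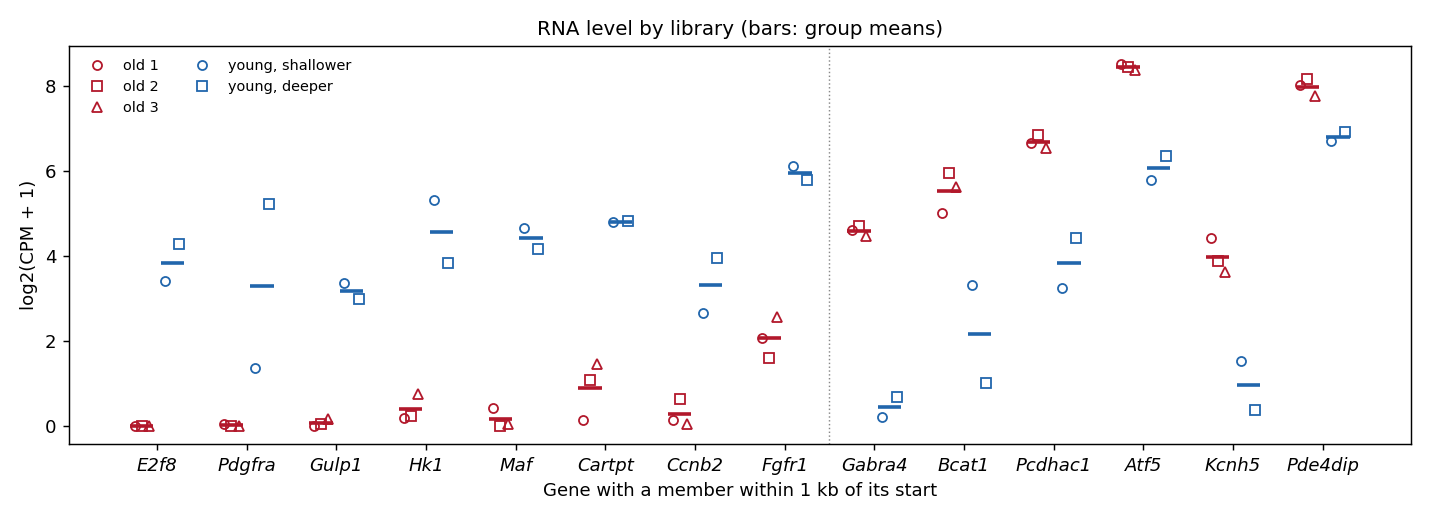
RNA level, as log2(CPM + 1), of 14 genes with a member within 1 kb of the start in the 3 old and the 2 young libraries, with bars at group means. The 8 genes left of the dotted line were lower and the 6 to its right higher in all old libraries than in any young one, and E2f8 is at 0 in the old group. The genes were chosen for their changes or after their values were seen, so this separation follows from the choice. The share of all genes that separate in this way is not given here.

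The rule of largest changes also named Rph3a, rabphilin of secretory vesicles, with 88.0, 86.1 and 85.1 CPM in old and 5.49 and 0.543 CPM in young libraries, and its call went without the third old library. Psph, the last enzyme of serine synthesis, had 11.7, 18.9 and 12.6 CPM in old and 0.784 and 1.16 CPM in young libraries. Ghdc and Slc25a35, with members under 1 kb from the start, had 7.43 to 10.5 and 7.18 to 9.80 CPM in old libraries and at most 0.627 CPM in young ones. Cmah, which makes N-glycolylneuraminic acid, had no count in old and 15.7 and 13.1 CPM in young libraries, at least 389.9-fold lower against a floor of 3 counts over the old group. Its member 23.1 kb from the start was called lower, with 34.8% in old and 63.5% in young cells. Slc38a1, a glutamine carrier, had 0.0375, 0 and 0.0424 CPM in old and 25.7 and 29.8 CPM in young libraries, beside a member called lower (18.7% in old and 29.2% in young cells). Tff3, a trefoil peptide of mucous epithelia, had 0.112, 0 and 0 CPM in old and 66.5 and 2.72 CPM in young libraries, and 1700022I11Rik had 0, 0.0298 and 0 CPM in old and 45.8 and 0.465 CPM in young libraries, so both were far apart within the young group.

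The 5 printed promoters differed in how methylation went with RNA. In the Gulp1 promoter 0.789% of 380 CpG calls were methylated in old cells (exact 95% interval 0.163 to 2.29%) and 26.4% of 478 in young cells (22.5 to 30.6%). Each of its 15 CpGs held 9 to 36 old and 6 to 49 young reads, and 14 were lower in old cells. The Hk1 promoter was at 6.70% of 746 old CpG calls (5.02 to 8.74%) and 14.8% of 751 young ones (12.3 to 17.5%), with 15 of 20 CpGs lower. The Ccnb2 promoter was at 1.63% of 1415 old CpG calls and 16.0% of 977 young ones. At all 3 genes both methylation and RNA were lower in old cells. The Cartpt promoter stood at 2.31% (1.53 to 3.35%) in old and 2.62% (1.91 to 3.52%) in young cells, with overlapping intervals. The Gabra4 promoter was at 8.29% of 374 old CpG calls (5.70 to 11.6%) and 5.26% of 323 young ones (3.10 to 8.29%), whose intervals overlap. Of 1506 promoters with a member and matched CpGs, 96 were lower and 53 higher in old cells by 10 points or more. The medians were 4.92% in old and 5.22% in young cells. No test was applied and promoters without a member were not counted, so these counts do not set members apart. The intervals cover counting error only and treat CpG calls as independent. One read can cover several CpGs and reads are not independent molecules, so they can be too narrow.

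**Figure D5:**
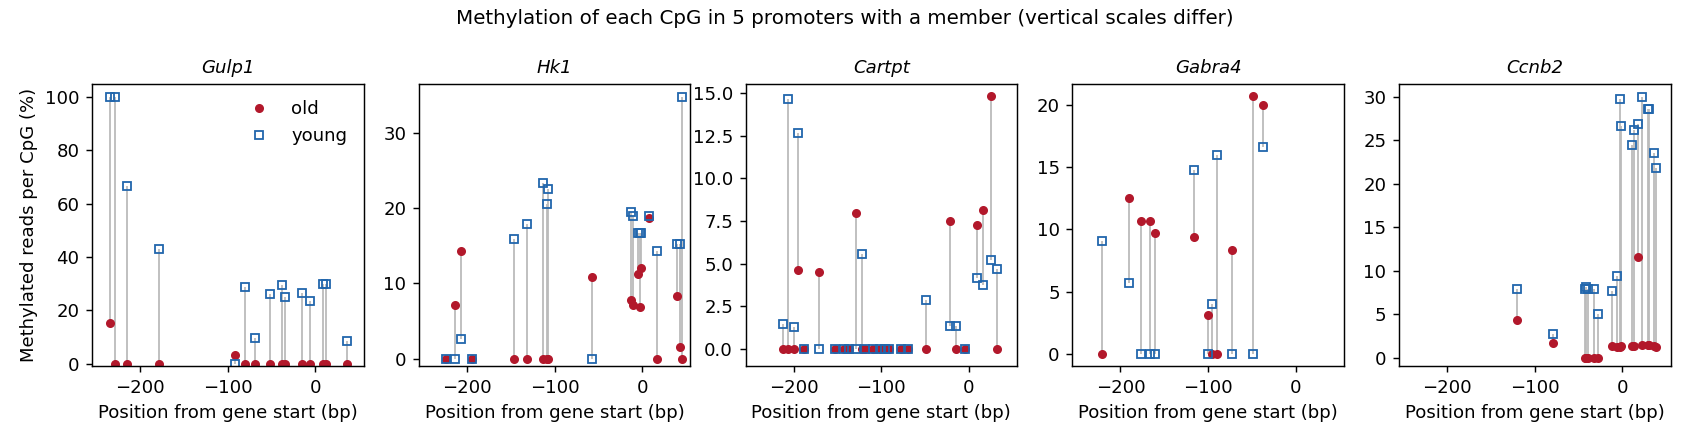
Share of methylated reads (%) at each CpG of the Gulp1, Hk1, Cartpt, Gabra4 and Ccnb2 promoters against position from the gene start (bp), in the old and the young library, for CpGs with at least 5 reads in both; a grey line joins both values of a CpG, and vertical scales differ. Old values lie below young ones at 14 of 15 Gulp1 and all 19 Ccnb2 CpGs, and at 8 of 26 Cartpt CpGs.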

How the data were processed

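Peaks, RNA and CpG methylation of sorted mouse β cells were taken as deposited, on mm9. Per the file headers, the authors called H3K4me1 peaks and H3K27ac regions with HOMER at an FDR of 0.01, 2-fold over input and 4-fold over the local 10 kb. Each peak carries a score, a fold enrichment over input and a p-value, all as deposited. The H3K27me3 lists give a score per region, deposited with no header, and the sources used here do not name the program that called them. RNA tables hold raw counts per gene as deposited. CpG tables hold the methylated fraction and the coverage per CpG as deposited, from which methylated reads were computed. The submitters' processing notes name Bowtie 0.12.7, CASAVA 1.8.2, HOMER, STAR and edgeR, with no role given. Gene starts came from the deposited transcript table, whose expression values were not used because 2 of its columns are identical. The 4 input libraries are not analysed here.

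CpGs with at least 5 reads in both libraries and within 500 bp of a peak centre were summed, and peaks with 3 or more such CpGs were tested (scipy 1.17.1). RNA was tested with edgeR 4.0.16 (TMM scaling, filterByExpr, quasi-likelihood test, Benjamini-Hochberg adjustment over all genes, threshold 0.05) in R 4.3.3, on old and young libraries only, and the procedure was tested on simulated data. DESeq2 1.42.0, other scaling, no filter on low counts, leaving out each library, and other overlap rules, windows and coverage minimums were tried as alternatives. A level is the share of CpG calls methylated, and intervals are exact (Clopper-Pearson) on these calls.

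Members named by rule were the 8 largest losses and gains among called members with at least 5 CpGs, the 5 with the highest young H3K4me1 score, the 5 under H3K27me3 at both ages with the highest old H3K27me3 score, and up to 2 called members of each gene list. Genes named by rule were the 6 largest rises and falls with a member within 50 kb and a mean of at least 5 CPM, the nearest genes of those members and a few fixed genes. Other genes were named after their values were seen. The members and the gene lists were chosen with earlier results of these data known. Not every gene examined singly is reported here.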

Additional observations from a re-analysis of the deposited data

How the results depend on the processing

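No paired analysis was possible because the young RNA columns carry no replicate number. Such a number would not in itself make pairs, since the old and young pools came from different mice. The number of members was 7193 when the young centre had to lie in an old peak, 7153 among the stronger-scored peaks and 24070 with an old peak within 500 bp. Under these 3 rules 1158, 1088 and 4171 members were lower and 357, 328 and 1335 higher, with median differences of -1.37, -1.07 and -1.63 percentage points. Of the members tested, 16.8, 15.6 and 18.1% were lower and 5.17, 4.69 and 5.79% higher. Over all young peaks tested 18.6% were lower and 6.89% higher. Overlap with H3K27me3 was 35.3%, 37.3% and 33.3% by the old list and 24.2%, 24.5% and 22.2% by the young list, and 30.8%, 37.1% and 26.8% lay within 1 kb of a gene start. The summed difference was 0.65 points among the stronger-scored peaks. With no H3K27ac region within 1 kb the values were 37.3% by the old list, 27.2% by the young list, 25.7% within 1 kb of a start, a summed difference of 0.79 and a median of -1.59 points. With members over 1 kb apart, overlap was 33.2% by the old and 22.4% by the young list. Of all members, 38.6% lay within 2 kb of a gene start. The summed and the median difference were 0.58 and -1.33 points with 10 reads per CpG, 0.30 and -1.70 points within 250 bp, and 0.20 and -1.56 points without CpGs of over 100 reads. With equal weight per CpG the median was -1.95 points and 341 members were higher, and within CpGs the median was -1.62 points. Single members reversed: Six3 was at -3.36 points within 250 bp, -1.66 with equal weight and -0.48 within CpGs, and within 250 bp Cat was at 1.82 and Ccnb2 at 13.5 points.

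Among genes nearest to a member, 294 were higher without a filter on low counts, and DESeq2 called 444 higher and 1062 lower. The counts over all genes under these settings are not given here. Leaving out an old library gave 9 to 24 higher and 104 to 145 lower, and leaving out a young library 465 to 921 higher and 825 to 963 lower. DESeq2's size factors in edgeR moved the median log2 fold change of all genes to -0.17, against -0.05 with TMM, and that of genes under H3K27me3 at both ages to -3.21. Of the 71 genes examined singly and called by edgeR, 70 kept the call under that scaling and 69 without the filter. The cause of these differences was not tested. With 1 methylation library per age, no spread between animals could be measured.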
